A study of Homo sapiens with 8 samples.

Results

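The 10 genes described here are grouped under the nuclear partner complexes of O-GlcNAc transferase (OGT). They encode the DNA dioxygenases TET1, TET2 and TET3, the host cell factors HCFC1 and HCFC2, and the corepressor scaffold SIN3A. The others encode the deubiquitinase BAP1, its cofactors ASXL1 and ASXL2, and the histone demethylase KDM1B. The genes were chosen by name from the 16796 genes of the count files, and all 10 had counts in every library. Messenger RNA was sequenced from LX-2, an established line of human hepatic stellate cells, grown in medium with 5% fetal bovine serum. The control group received no OSMI-1, and the study describes such cells as not treated. The OGTi group received 50 µM of OSMI-1, an inhibitor of the catalytic activity of OGT. Both groups were collected after 24 h, and each had 4 biological replicates, numbered 1 to 4 and paired by number in the study's methods. A single line was used, so the values describe LX-2 cells and not stellate cells of several donors.

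OGT is the enzyme that places O-GlcNAc, a single sugar, on serines and threonines of nuclear and cytoplasmic proteins, and OGA removes it. OGT has no DNA-binding domain of its own and reaches chromatin through partner proteins. TET proteins oxidise 5-methylcytosine and bind OGT. HCF1, the product of HCFC1, is both modified and proteolytically cleaved by OGT, and it recruits histone-modifying complexes to promoters. SIN3A holds histone deacetylase complexes together. BAP1 needs an ASXL protein to remove ubiquitin from histone H2A. KDM1B, also known as LSD2, removes methyl groups from histone H3, and it has been described as a ubiquitin ligase that targets OGT for degradation.

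The upstream sequences of 3 of these genes are shown because they are those whose transcripts changed in the same direction in all 4 pairs with no overlap between the groups, and for which RefSeq gave a window. They are RefSeq sequence on GRCh38.p14, plus strand, written 5′ to 3′ and ending before the first annotated base of the gene. Capitals mark matches to the motifs searched. KDM1B (chr6:18155172-18155328) rose with OGTi, whereas HCFC2 (chr12:104064281-104064530) and ASXL1 (chr20:32358081-32358329) fell.
KDM1B: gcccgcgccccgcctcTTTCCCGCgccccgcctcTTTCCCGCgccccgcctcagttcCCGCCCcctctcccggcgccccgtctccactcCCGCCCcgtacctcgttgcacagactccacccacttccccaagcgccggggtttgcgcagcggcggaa
HCFC2: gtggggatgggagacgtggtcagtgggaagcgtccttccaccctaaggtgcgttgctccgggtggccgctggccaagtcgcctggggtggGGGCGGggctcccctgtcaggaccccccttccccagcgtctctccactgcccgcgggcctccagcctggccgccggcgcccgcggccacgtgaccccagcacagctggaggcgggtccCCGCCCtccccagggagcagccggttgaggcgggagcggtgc
ASXL1: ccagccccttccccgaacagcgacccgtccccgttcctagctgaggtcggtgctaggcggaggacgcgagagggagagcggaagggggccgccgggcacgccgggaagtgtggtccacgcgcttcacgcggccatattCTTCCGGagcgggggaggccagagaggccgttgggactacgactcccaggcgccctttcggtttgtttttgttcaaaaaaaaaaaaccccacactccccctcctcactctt

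The KDM1B sequence held 2 matches to the E2F motif TTTCCCGC in a repeated stretch and 2 matches to the SP and KLF motif GGGCGG on the other strand. The HCFC2 sequence held 2 matches to GGGCGG, 1 on each strand, and no E2F match. The ASXL1 sequence held 1 match to the ETS motif CCGGAAG, on the other strand. The E2F form was added to the search after its repeat had been seen in the KDM1B window, so its match there is a description and supports nothing. Longer windows had been searched first, and they were then cut to end before the start they belong to. This removed YY1 matches in HCFC2 and TET2. RefSeq windows of 250 bases upstream of a start were found for 8 of the 10 genes, TET1, TET2, TET3, HCFC2, SIN3A, ASXL1, ASXL2 and KDM1B. For each gene the window nearest the start of the MANE Select transcript, the reference transcript of a gene, was read. The windows read for TET2 and SIN3A lie inside the annotated gene, upstream of that start. Those read for KDM1B and ASXL1 include the first annotated base of the gene, so bases of other transcripts were not all left out. With both strands read in the 35116 windows of all genes, GGGCGG was in 42.6% and CCGGAAG in 8.52%. TTTCCCGC was in 1.39%, with 2 or more matches in 0.037%. Among the 8 genes, 6 windows held GGGCGG, 2 held TTTCCCGC (KDM1B and SIN3A) and 2 held CCGGAAG (ASXL1 and ASXL2). In ASXL2 the CCGGAAG match shares letters with a GGGCGG match, and in SIN3A the TTTCCCGC match shares letters with one. The NRF1 motif GCATGCGC, in 2.63% of all windows, was found in ASXL2 only. No window of the 8 held the ZNF143 and THAP11 motif ACTACAA (2.47% of all windows), the YY1 motif AAGATGG (3.7%), a second E2F form TTTGGCGC (0.55%), the CREB and ATF motif TGACGTCA (1.65%) or the ATF4 motif TGATGCAA (0.772%).

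The libraries held between 24166756 and 28201215 expected counts, the counts that RSEM assigns to genes. Normalized counts are these counts divided by the DESeq2 size factor of the library. Fold changes are on the log2 scale, OGTi over control, with the standard error (SE) of the DESeq2 fit, in which replicate number was a block. Called genes are those with a q of 0.05 or lower, where q is the Wald p adjusted over all genes by the Benjamini-Hochberg method. By this rule 46.6% of the 14028 genes with a q were called, 22.7% higher and 24.0% lower in OGTi, and the median log2 fold change of all genes tested was 0.00. Of the stellate cell markers 8 of 10 were called lower, with summed normalized counts from 228520 to 267499 in control and from 163885 to 187259 in OGTi. Hepatocyte markers summed to between 0.0 and 1.0, with ALB, TTR, CYP3A4 and HNF4A not analysed here. Cholangiocyte markers summed to at most 141.3 and endothelial markers to at most 91.1 in any library. Leukocyte and Kupffer cell markers summed to between 2477 and 4080 in control and between 5605 and 9390 in OGTi, almost all of it CD68. The part of these shifts in the results for the 10 genes was not tested. The transcript of OGT itself fell (log2 fold change -0.45 ± 0.09 SE, DESeq2 q = 1.48e-06), which does not measure the inhibition of the enzyme.

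Of the 10 genes, 4 fell (HCFC1, HCFC2, ASXL1 and TET2), 1 rose (KDM1B) and 5 did not pass the threshold (TET1, TET3, SIN3A, BAP1 and ASXL2). This is a share of 50.0% against 46.6% of all genes, so the number of calls among the 10 genes was near the background. Their median log2 fold change was -0.27. The counts of the groups did not overlap for 4 of the 10 genes, against 38.0% of all genes tested. In a bulk library, less RNA per cell and fewer cells that express a gene cannot be told apart.

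**Figure D1:**
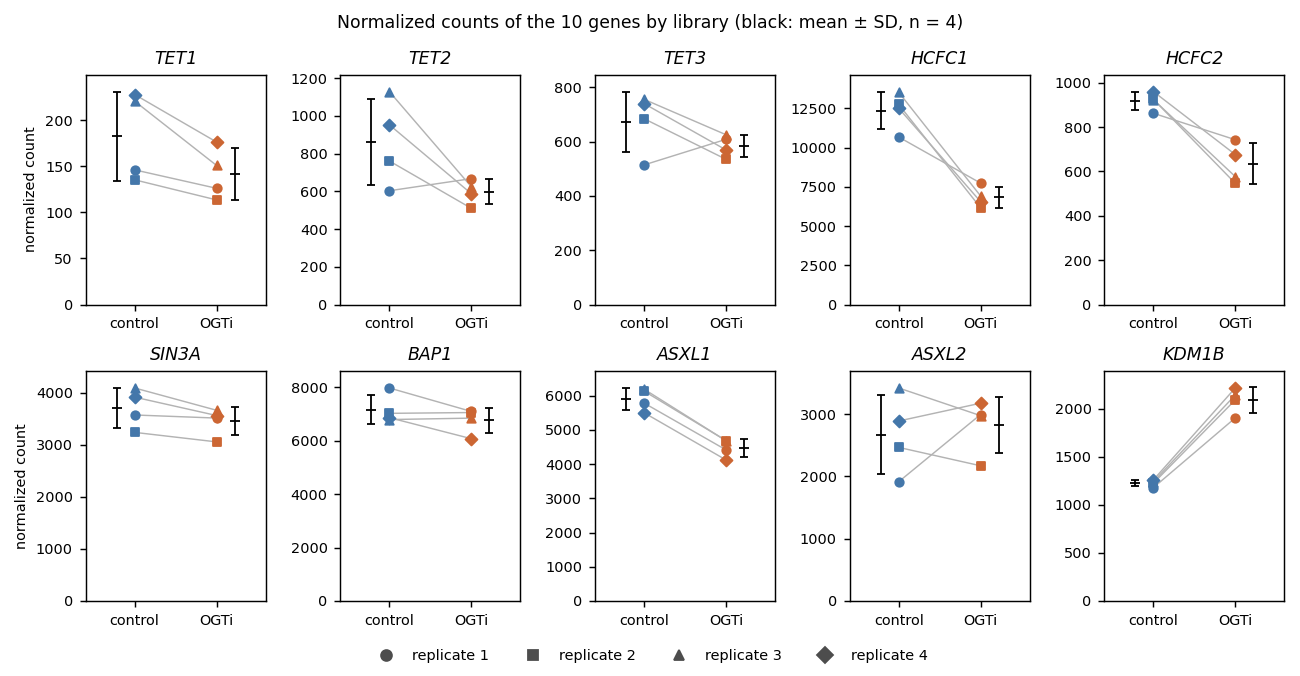
Normalized counts (vertical axes, from 0) of the 10 genes in control (blue) and OGTi (orange) libraries, with grey lines joining libraries of the same replicate number and black bars giving the mean ± SD of 4 libraries. HCFC1, HCFC2 and ASXL1 were lower and KDM1B higher in all 4 OGTi libraries than in any control library, while for TET2 the control libraries spread from 603.0 to 1128.

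HCFC1 showed the largest fall of the 10 genes. It lies on the X chromosome (GRCh38, chrX:153947557-153971818, minus strand) and its MANE Select transcript has 26 exons. Its normalized counts were 10676, 12750, 13526 and 12510 in control replicates 1 to 4 and 7739, 6169, 6921 and 6558 in the OGTi replicates. Every OGTi library was below every control library. The mean fell from 12366 ± 1207 to 6847 ± 669 (SD, n = 4), a log2 fold change of -0.85 ± 0.09 (SE, DESeq2 q = 8.94e-20). On the linear scale HCFC1 fell by 44.6%. The fall was smallest in pair 1, at -0.46, and lay between -0.93 and -1.05 in the other pairs. Among all called genes 24.1% had an absolute change at least as large. The antisense gene HCFC1-AS1 overlaps it on the other strand, and the reads were counted by strand.

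HCFC2, the paralog of HCFC1 that lacks its proteolytic repeats, also fell. It lies at chr12:104064531-104106524, directly after the window printed above. Its counts were 862.2, 925.3, 923.9 and 960.0 in control and 743.0, 546.4, 576.8 and 676.2 in OGTi. All 4 OGTi libraries were below the control libraries. The log2 fold change was -0.54 ± 0.11 (SE, DESeq2 q = 1.43e-05), so HCFC2 fell by 31.1%. As for HCFC1, the difference was smallest in pair 1 (-0.21 on the log2 scale) and largest in pair 2 (-0.76).

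The ratio of HCFC1 to HCFC2 counts within a library does not depend on the size factor. It was between 12.4 and 14.6 in control and between 9.70 and 12.0 in OGTi, with no overlap. The ratio fell by 0.31 on the log2 scale, so HCFC1 lost more than its paralog in each of the 4 pairs. The exact two-sided permutation test of 4 against 4 libraries gave p = 0.0286, the smallest it allows, and q = 0.0857 over the 6 ratios run, which did not pass the threshold.

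Among the TET genes only TET2 was called. TET2 (chr4:105145875-105279816) had 603.0, 760.9, 1128 and 952.7 normalized counts in control and 667.1, 510.3, 624.9 and 588.0 in OGTi. Control replicate 1 lay within the range of the OGTi libraries, and TET2 was lower with OGTi in 3 of 4 pairs. The log2 fold change was -0.50 ± 0.14 (SE, DESeq2 q = 0.00171), so TET2 fell by 29.2%. Without replicate 3 the call was lost (-0.38, q = 0.0571). TET2-AS1 overlaps TET2 on the other strand.

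TET3 (chr2:73984910-74108176) had the same kind of spread and was not called. It had 514.4, 684.8, 756.2 and 740.5 counts in control and 608.6, 535.4, 625.9 and 570.0 in OGTi. The groups overlapped, and the log2 fold change was -0.19 ± 0.13 (SE, DESeq2 q = 0.215). Pair 1 was higher with OGTi (0.24) and the other pairs were lower (-0.27 to -0.38), and without replicate 1 the gene was called (-0.33, q = 0.0251).

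TET1 (chr10:68560337-68694487), which carries a CXXC domain that binds CpG-rich DNA, had the fewest counts of the 10 genes. Its counts were 146.1, 135.3, 220.6 and 227.8 in control and 126.1, 113.5, 150.9 and 176.3 in OGTi. The OGTi library was the lower in all 4 pairs, but the ranges overlapped. The difference was -0.35 ± 0.19 on the log2 scale (SE, DESeq2 q = 0.116), and its 95% interval of -0.71 to 0.02 holds both no change and a fall larger than that of TET2.

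The ratio of TET2 to TET3 counts was between 1.11 and 1.49 in control and between 0.953 and 1.10 in OGTi. It was lower with OGTi in each pair, by 0.30 on the log2 scale on average (exact two-sided permutation p = 0.0286, q = 0.0857), and did not pass the threshold after adjustment. The ratio of TET1 to TET3 counts overlapped between the groups (0.198 to 0.308 and 0.207 to 0.309, exact two-sided permutation p = 0.486).

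Neither SIN3A nor BAP1, the scaffold and the enzyme of their complexes, was called. SIN3A (chr15:75369379-75455842) had 3572, 3238, 4091 and 3915 counts in control and 3513, 3056, 3663 and 3562 in OGTi. The ranges overlapped, although each OGTi library was below its paired control. The log2 fold change was -0.10 ± 0.07 (SE, DESeq2 q = 0.244), with a 95% interval of -0.24 to 0.04.

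BAP1 (chr3:52401008-52410008) had 7973, 7023, 6791 and 6861 counts in control and 7095, 7053, 6844 and 6075 in OGTi. It was lower in 2 pairs and higher in 2. The log2 fold change was -0.08 ± 0.07 (SE, DESeq2 q = 0.353), with a 95% interval of -0.22 to 0.06. The intervals of SIN3A and BAP1 were among the narrowest of the 10 genes, and both exclude a change as large as that of ASXL1.

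Of the cofactors of BAP1, ASXL1 was called and ASXL2 was not, and the test of the difference between them (the ratio of their counts) did not pass the threshold. ASXL1 (chr20:32358330-32439319) had 5784, 6133, 6190 and 5501 counts in control and 4417, 4688, 4685 and 4123 in OGTi. All OGTi libraries were below all control libraries, and the pairs were alike, with differences from -0.39 to -0.42 on the log2 scale. The log2 fold change was -0.40 ± 0.07 (SE, DESeq2 q = 8.56e-09), so ASXL1 fell by 24.1%.

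ASXL2 (chr2:25733753-25878487) had 1914, 2466, 3420 and 2889 counts in control and 2994, 2171, 2976 and 3175 in OGTi. The spread within the control group was as wide as any difference between the groups. The log2 fold change of 0.10 ± 0.19 (SE, DESeq2 q = 0.714) rested on pair 1, which was higher by 0.65, and without replicate 1 it was -0.08. The ratio of ASXL1 to ASXL2 counts was 1.810 to 3.021 in control and 1.298 to 2.160 in OGTi, with overlapping groups. It was lower with OGTi in each of the 4 pairs, with a mean difference of -0.50 on the log2 scale, and did not pass the threshold (exact two-sided permutation p = 0.0857, q = 0.171). The ratio of BAP1 to the sum of ASXL1 and ASXL2 overlapped as well (0.707 to 1.04 in control and 0.832 to 1.03 in OGTi, exact two-sided permutation p = 0.257, q = 0.309).

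KDM1B was the only one of the 10 genes to rise. It lies at chr6:18155329-18223854, and the sequence with the repeated TTTCCCGC printed above lies directly upstream. Its normalized counts were 1179, 1225, 1241 and 1260 in control and 1904, 2092, 2142 and 2216 in OGTi. All OGTi libraries were above all control libraries, and the control libraries had the lowest coefficient of variation of the 10 genes (2.82%). The mean rose from 1226 ± 35 to 2089 ± 133 (SD, n = 4), a log2 fold change of 0.77 ± 0.08 (SE, DESeq2 q = 5.34e-20) and a 1.70-fold level. The rise was between 0.69 and 0.81 in each pair. Of all called genes, 29.0% changed by as much or more.

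**Figure D2:**
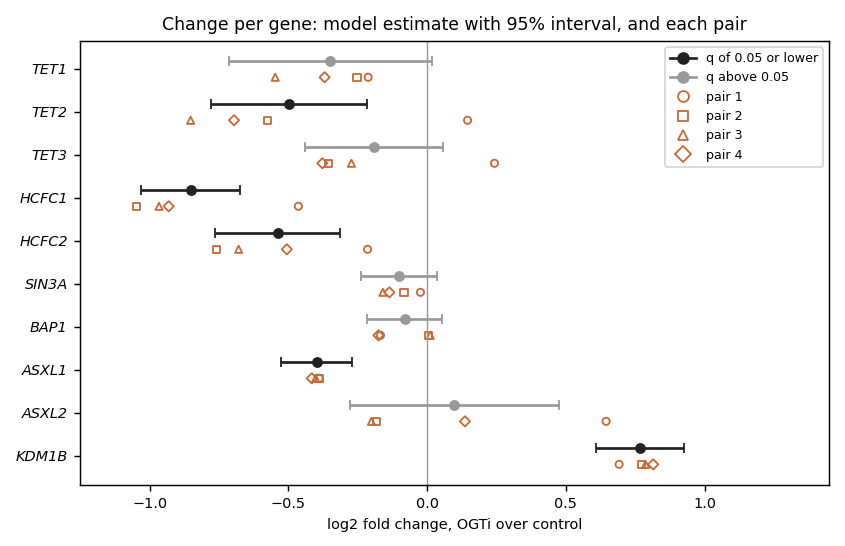
Log2 fold change of OGTi over control (horizontal axis) of the 10 genes, as the model estimate with its 95% interval (filled points, black where q was 0.05 or lower) and for each replicate pair (open symbols). Pair 1 stood to the right of the other pairs for TET1, TET2, TET3, HCFC1, HCFC2, SIN3A and ASXL2, and the pairs of ASXL1 lay between -0.39 and -0.42.

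The libraries at the ends of the groups were often the same for several genes. Control replicate 1 was the lowest control library for 6 of the 10 genes (TET2, TET3, HCFC1, HCFC2, ASXL2 and KDM1B), and control replicate 3 was the highest for 6. OGTi replicate 2 was the lowest OGTi library for 7. In 5 of the 10 genes, TET1, TET2, TET3, HCFC1 and ASXL2, the MANE Select transcript is 8000 bases or longer. Over the 1000 genes with such transcripts whose mean normalized count was 100 or more, the median deviation of control replicate 1 from the other control libraries was -0.22 on the log2 scale and that of control replicate 3 was 0.20. Over all 10596 genes compared these medians were -0.00 and 0.01. For OGTi replicate 2 the median deviation from the other OGTi libraries was -0.11 over the long transcripts and 0.00 over all genes compared. Between the groups, the median log2 fold change was -0.04 for these long transcripts and 0.00 for shorter ones. The part of transcript length in the values of the 10 genes was not tested.

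Levels were compared between genes as normalized counts per kb of the MANE Select transcript. In control cells BAP1 was highest, at 1989 ± 153 per kb (SD, n = 4), followed by HCFC1 at 1393 ± 136 and ASXL1 at 837 ± 46. SIN3A stood at 551 ± 56, KDM1B at 270 ± 8, ASXL2 at 208 ± 50 and HCFC2 at 162 ± 7. The TET genes were lowest, with TET2 at 89.8 ± 23.8, TET3 at 55.9 ± 9.2 and TET1 at 19.0 ± 5.0 per kb. Neighbours in this order had ranges over the 4 libraries that overlapped only for KDM1B with ASXL2 and for ASXL2 with HCFC2. The order was the same in OGTi, where HCFC1 stood at 771 ± 75 and KDM1B at 460 ± 29 per kb. With the union of all exons as length the order held, but TET2 (52.3) and TET3 (52.1) were then nearly equal.

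**Figure D3:**
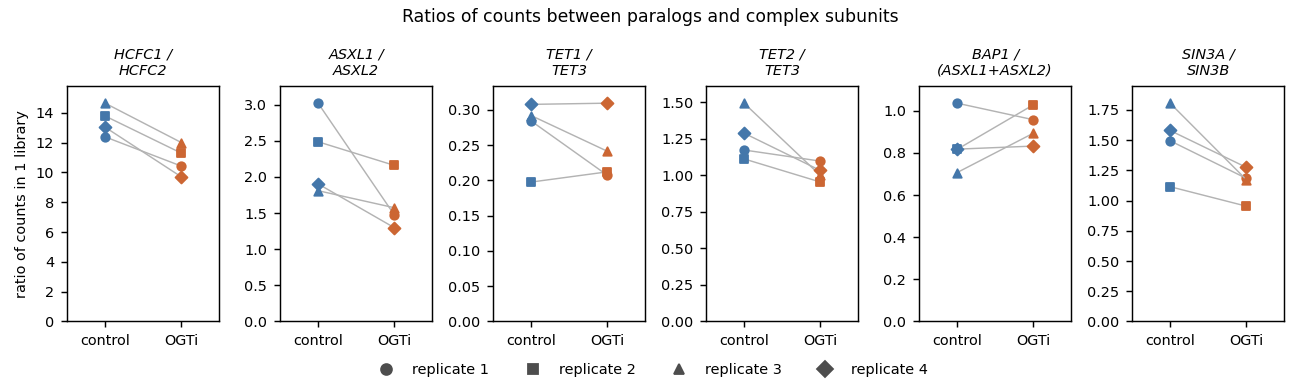
Ratio of the normalized counts of 2 genes (or of BAP1 to the sum of 2 genes) in the same library (vertical axes, from 0), for control (blue) and OGTi (orange), with libraries of the same replicate number joined by grey lines. HCFC1/HCFC2 and TET2/TET3 did not overlap between the groups, and none of the 6 ratios had a q of 0.05 or lower.

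The partner genes of these complexes were read from 8 lists. Of 101 partner genes tested, 49 were called (18 higher and 31 lower), a share of 48.5% against 46.6% of all genes. Among 18 genes of DNA methylation and demethylation, in which TET proteins act, 5 rose and 6 fell. This was 61.1% called, against 46.6% of all genes, and the median log2 fold change was -0.05. The largest rise was that of IDH2, a mitochondrial isocitrate dehydrogenase whose product 2-oxoglutarate is the cosubstrate of TET enzymes (from 1179 ± 181 to 2230 ± 219 normalized counts, log2 fold change 0.93 ± 0.09 SE, DESeq2 q = 1.61e-21). The largest fall was that of NEIL3, a DNA glycosylase (from 1092 ± 133 to 523 ± 39, log2 fold change -1.06 ± 0.10 SE, DESeq2 q = 1.73e-24).

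HCF1 acts with the SET1 and MLL histone methyltransferases and the NSL acetyltransferase complex. Of 18 such genes 1 rose and 3 fell (22.2% called, against 46.6% of all genes), with a median of 0.01. These 4 calls became 2 without replicate 2 or without replicate 4, and with edgeR they became 7 with the replicate block and 3 without it. The largest fall was in MCRS1, a subunit of the NSL complex, with 2343, 2489, 2656 and 2583 normalized counts in control and 815.2, 802.6, 867.2 and 787.3 in OGTi. Its groups lay far apart, with a log2 fold change of -1.62 ± 0.08 (SE, DESeq2 q = 4.7e-82), a larger fall than that of any of the 10 genes. CXXC1, the CpG-binding subunit of the SET1 complexes, was the 1 gene that rose (0.22 ± 0.09 SE, DESeq2 q = 0.0264), with overlapping groups.

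Of 12 transcription factors that bind HCF1 or bring it to DNA, 1 rose and 3 fell (median -0.10). This was 33.3% called, against 46.6% of all genes. Without replicate 2 or without replicate 4, 2 were called. CREB3, which binds HCF1 directly, rose (0.49 ± 0.10 SE, DESeq2 q = 1.74e-05), although 1 control library lay within the OGTi range. SP1, a zinc finger factor that is itself O-GlcNAcylated, fell (-0.31 ± 0.08 SE, DESeq2 q = 0.000153). The SIN3-HDAC list of 21 genes was divided, with 7 higher and 6 lower (61.9% called, against 46.6% of all genes). The median of this list was -0.00. Its largest rise was in SAP30, which bridges SIN3A and histone deacetylases (from 215 ± 21 to 413 ± 37 normalized counts, log2 fold change 0.94 ± 0.14 SE, DESeq2 q = 2.69e-10). Its largest fall was in SAP25 (-0.69 ± 0.28 SE, DESeq2 q = 0.0342), with overlapping groups.

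SIN3B, the paralog of SIN3A, rose (from 2509 ± 278 to 3021 ± 181 normalized counts, log2 fold change 0.27 ± 0.08 SE, DESeq2 q = 0.00265). The groups overlapped for SIN3B, and SIN3A was not called. The ratio of SIN3A to SIN3B was 1.11 to 1.81 in control and 0.954 to 1.28 in OGTi. It was lower in each pair, with a mean difference of -0.37 on the log2 scale, and the test of that difference did not pass the threshold (exact two-sided permutation p = 0.114, q = 0.171).

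Around BAP1, 1 of 6 PR-DUB partners tested was called (16.7%, against 46.6% of all genes), and the median was 0.11. FOXK2, a forkhead factor that binds BAP1, rose (0.22 ± 0.07 SE, DESeq2 q = 0.0055), and without replicate 2 or without replicate 3 no gene of the list was called. ASXL3 was not analysed here. Of 13 genes of PRC1, which places the ubiquitin on histone H2A that BAP1 removes, 1 rose and 6 fell (median -0.16). This was a share of 53.8% against 46.6% of all genes, and 5 were called without replicate 2 or without replicate 4. BCORL1, a corepressor, rose by 0.75 ± 0.09 on the log2 scale (SE, DESeq2 q = 2.83e-15). BMI1 fell (-0.92 ± 0.26 SE, DESeq2 q = 0.00168), but its counts were fractional in all 8 libraries, which marks reads shared with another gene, and its OGTi libraries ran from 320.4 to 790.5.

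KDM1A (LSD1), the paralog of KDM1B, was not called. It had 3157, 3095, 3348 and 3192 normalized counts in control and 3040, 3119, 3027 and 3009 in OGTi, and its log2 fold change was -0.07 ± 0.07 (SE, DESeq2 q = 0.463). The 95% interval of that change, -0.21 to 0.07, lay below that of KDM1B (0.61 to 0.92). Of 5 LSD1 and LSD2 partner genes 2 rose, a share of 40.0% against 46.6% of all genes called. The larger rise was that of RCOR3, a CoREST family corepressor (0.33 ± 0.13 SE, DESeq2 q = 0.0256). The number called was 0 without replicate 1, 3 or 4 and 1 without replicate 2.

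In the list of OGT, OGA and cytoplasmic OGT adaptors 7 of 8 fell, with a median of -0.27. This was a share of 87.5%, against 46.6% of all genes called and 24.0% called lower. The groups did not overlap for 3 of the 8 genes, against 38.0% of all genes tested. The calls became 5 without replicate 2, 3 or 4, and 5 with edgeR without the replicate block. OGA fell most (from 3159 ± 423 to 904 ± 85 normalized counts, log2 fold change -1.80 ± 0.09 SE, DESeq2 q = 1.69e-92), and every OGTi library was below every control library.

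**Figure D4:**
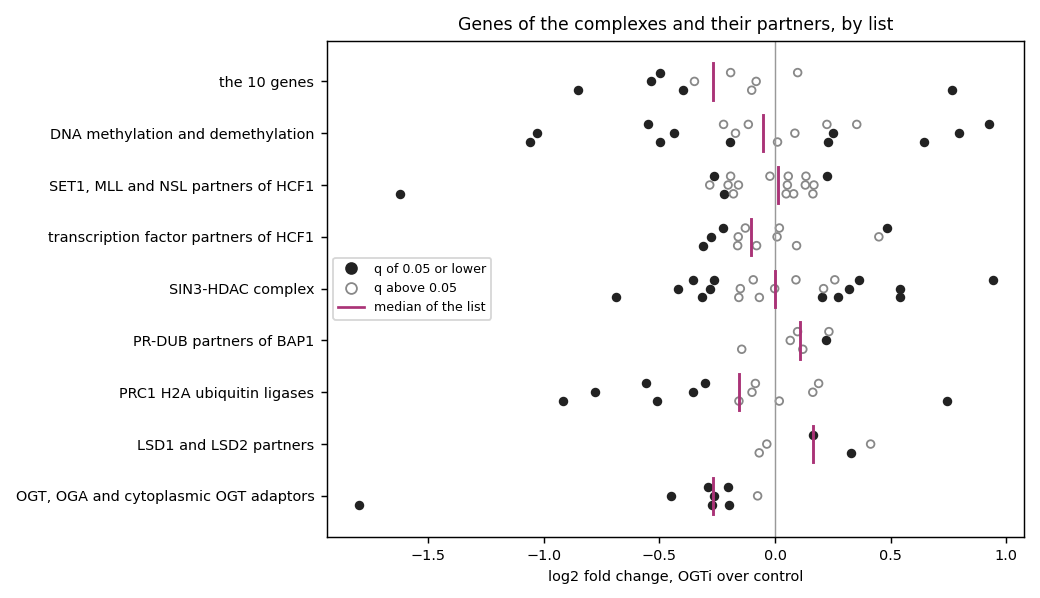
Log2 fold change of OGTi over control (horizontal axis) of each of the 10 genes and of the tested genes of 8 partner lists, filled where q was 0.05 or lower, with the median of each list as a purple bar. The 10 genes and the OGT list had medians of -0.27, SIN3-HDAC genes lay on both sides of 0, and MCRS1 (-1.62) and OGA (-1.80) lay furthest to the left.

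The genes whose log2 counts followed those of HCFC1 most closely over the 8 libraries were ZNF618 (Pearson r = 0.994), BEND7 (0.993) and PBRM1 (0.989), among 10993 genes whose mean normalized count was 100 or more. The 8 libraries share the split by treatment, and 1074 genes had an r above 0.9, so these values are a description.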

How the data were processed

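RNA was collected from LX-2 cells of 4 control and 4 OGTi replicates, and libraries were stranded, poly(A)-enriched and paired-end. The authors aligned reads to hg38 with Bowtie2 2.3.5.1 and counted them with RSEM 1.3.1, and the deposited files hold the expected counts of 1 library each, without scaling. Their DESeq2 1.36.0 comparison table, with fold changes and p-values, was not used. Of the 80 values of the 10 genes, 3 were not whole.

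Expected counts were rounded, genes with a total under 10 were left out, and 14895 genes were compared with the DESeq2 1.42.0 Wald test in R 4.3.3, without shrinkage and with independent filtering. Replicate number was a block, as in the study's methods. The correlation of deviations from the group mean was 0.157 to 0.378 between libraries of the same number and -0.307 to 0.308 between others, over 12316 genes. Alternatives included edgeR 4.0.16, TMM factors, other filters and leaving out each pair. No library was a copy of another (chi-square per degree of freedom between replicates of 8.38 or more). Ratios were tested with exact permutations in scipy 1.17.1, without the pairing, since sign flips over 4 pairs cannot pass the threshold. Gene models came from GENCODE release 44, whereas the methods name an older annotation. Scripts were tested on simulated data, where 2-fold changes were recovered less often at low counts. DESeq2 missed the recovery first required over all such genes, and the requirement was then limited to means of 100 or more, a range that holds all 10 genes.

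The 10 genes, the lists and the motifs were chosen with earlier results of these data known. Partner genes named were the largest called rise and fall of each list and the paralogs SIN3B and KDM1A; for HCFC1, the called gene of the 10 with the largest change, the 3 genes with the most similar counts were named.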

Additional observations from a re-analysis of the deposited data

Results flagged for a closer look

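In 3 of 64 groups of 4 libraries a single library stood apart from the other 3 by a Dixon test, a number near the 3.2 that chance gives, since about 1 in 20 groups is marked by chance. None of them was among the 10 genes. For IDH2, control replicate 1 stood at 1450 normalized counts, above the 1066 to 1109 of the remaining controls. For SP1 the same library stood at 3389, below 3950 to 3995, and for BMI1 control replicate 3 stood at 1248, above 993.9 to 1013.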

How the results depend on the processing

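Under 11 alternatives, HCFC1 (log2 fold change -0.98 to -0.79), HCFC2 (-0.65 to -0.46), ASXL1 (-0.40 to -0.39) and KDM1B (0.75 to 0.79) kept their direction and their call. The number of the 10 genes called was between 4 and 6 when a replicate was left out and 5 otherwise. ASXL2 was between -0.08 and 0.20 when a replicate was left out and turned to -0.081 without replicate 1, where TET3 became called (-0.33), and TET2 lost its call without replicate 3 (-0.38). Without the replicate block 6307 genes were called instead of 6541, and the calls of the 10 genes did not change. Counts of called genes in the partner lists moved by over 1.5 times in 12 of 88 cases. Among levels per kb, 6 of 10 moved by more than 1 SD with the union of exons as length, and the order held. For the ratios, leaving out a replicate left 3 against 3 libraries, where the exact test cannot go below 0.1, and the test of the replicate block by sign flips over 4 pairs cannot pass the threshold either, so neither can show stability. The TET1 interval (-0.71 to 0.02) shows what 4 replicates could resolve for this gene. ASXL2 had more counts and an interval of -0.28 to 0.47. The parts of depth and of spread between libraries in these widths were not tested.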
